A study of Mus musculus with 12 samples.

Results

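Interleukins and their receptors were described in PyMT mammary tumors as all genes whose symbol starts with Il and a digit, together with Ebi3, the symbol of a subunit shared by IL-27 and IL-35. This rule found 83 of the 21960 genes listed for each tumor, and it used no measured value. By role they were 37 ligands or ligand subunits, 38 receptor chains, 7 inhibitors or decoy receptors and 1 enzyme, Il4i1, an amino acid oxidase that carries the symbol without being a cytokine. All 83 matched a gene of GENCODE vM21 by identifier, and all 83 are annotated as protein coding. The study asked whether doxorubicin (DOX), an anthracycline chemotherapy, improves blockade of the immune checkpoint receptor PD-1 in mice. Bulk RNA was sequenced from 12 snap-frozen whole tumors, 3 in each of 4 groups that received the control antibody IgG1, anti-PD-1, DOX/IgG1 or DOX/anti-PD-1. All mice were female C57BL/6 animals that carried the polyoma middle T oncogene under the mouse mammary tumor virus promoter, which drives it in mammary epithelium, so tumors arose spontaneously in the mammary glands. Their age at sampling is not given in the sources used here.

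In the IgG1 and anti-PD-1 groups, treatment began when the first tumor measured 0.6 cm in diameter, and the antibody was injected intraperitoneally at 20 mg/kg first and at 10 mg/kg later. In the DOX/IgG1 and DOX/anti-PD-1 groups it began at 1 cm, with 5 mg/kg doxorubicin each week and 10 mg/kg antibody on the day after. The labels give once-weekly treatment over 5 weeks in every group, whereas the protocol gives a shorter antibody schedule without doxorubicin. Doxorubicin therefore cannot be told apart from the starting size of the tumor, the first dose of antibody and the schedule. Whole tumors mix carcinoma cells with stroma and leukocytes, and in such bulk samples fewer cells of a type and less RNA per cell cannot be told apart. The 7 epithelial markers Epcam, Krt8, Krt18, Krt19, Cdh1, Krt14 and Krt5 summed to 2034 to 3670 TPM per tumor, with Epcam the most abundant and none at 0 throughout. No source used here states that each tumor came from a different mouse, so the tests measure the spread between these 12 tumors.

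Interleukins are secreted signals by which leukocytes, epithelium and stroma direct each other's growth, recruitment and activity. Most act through receptors built from a chain that recognizes the ligand and a chain shared within a family, such as the common gamma chain, gp130 or the IL-1 receptor accessory protein, and soluble antagonists or decoy receptors limit several of them. In mammary tumors, IL-1 and IL-17 signals are known for recruiting myeloid cells, whereas IL-12, IL-15 and IL-18 are known for activating T cells and natural killer (NK) cells.

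Levels are in TPM, a share of all transcripts corrected for transcript length, which allows genes to be compared within a tumor. The depth of the libraries is unknown, because TPM keeps no read counts, so no counting error can be given. Of 6792 genes with a mean of at least 20 TPM, 58 were at 0 in 1 or more tumors, so a value of 0 is reported only as listed at 0. The library DOX/IgG1 1 lay at the end of the range in the following measures. It had 8104 genes at 0, against 6534 to 7730 in the other 11 tumors. It had the fewest interleukin genes above 0, 40 of 83 against 43 to 55. Its median correlation with the other tumors across genes was the lowest, by a narrow margin (0.94, against 0.944 to 0.96). Its value column is also the only one headed as a test, and the column headers of the 3 DOX/anti-PD-1 tumors carry another number than those of the other 9, which the sources used here do not explain, so a difference in processing cannot be told apart from the combination. Results that rest on DOX/IgG1 1 are given with and without it. In value lists the tumors follow their replicate numbers 1, 2 and 3, which are used here only to name them.

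Interleukin and receptor genes lay lower than genes in general. A mean of at least 1 TPM over the 12 tumors was reached by 44 of 83 (53.0%), against 64.0% of all listed genes. Of these 44, 20 reached 10 TPM and 24 lay between 1 and 10 TPM. A further 28 had a mean above 0 but below 1 TPM, and 9 of them were above 0 in a single tumor. The remaining 11 were listed at 0 in every tumor. They are the ligands Il3, Il9, Il17a, Il1f6, Il20, Il21, Il22, Il24 and Il31, the receptor chain Il11ra2 and the IL-1 family member Il1f10. Counted tumor by tumor, 30 genes were above 0 in all 12, 25 reached 1 TPM in all 12, and 11 reached 10 TPM in all 12.

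Receptor chains made up most of this signal. The means of the 83 genes summed to 943.0 TPM, of which receptor chains held 86.1%, and the highest pair, Il11ra1 and Il6st, held 42.4%. Among receptor chains, 27 of 38 reached a mean of 1 TPM and 15 reached 10 TPM, with a summed mean of 811.6 TPM. Among ligands the counts were 13 and 4 of 37, with a summed mean of 93.77 TPM. Inhibitors came to 3 and 1 of 7, summing to 34.61 TPM. By family, the IL-6 group was the most abundant at 411.1 TPM over 8 genes, followed by the IL-1 family at 173.4 TPM over 20, the IL-2 and IL-4 group at 165.5 TPM over 17 and the IL-17 family at 107.9 TPM over 11. The IL-10 family summed to 61.81 TPM over 11 genes, the IL-12 family to 7.34 TPM over 9, and the IL-3 and IL-5 group to 1.821 TPM over 4.

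**Figure D1:**
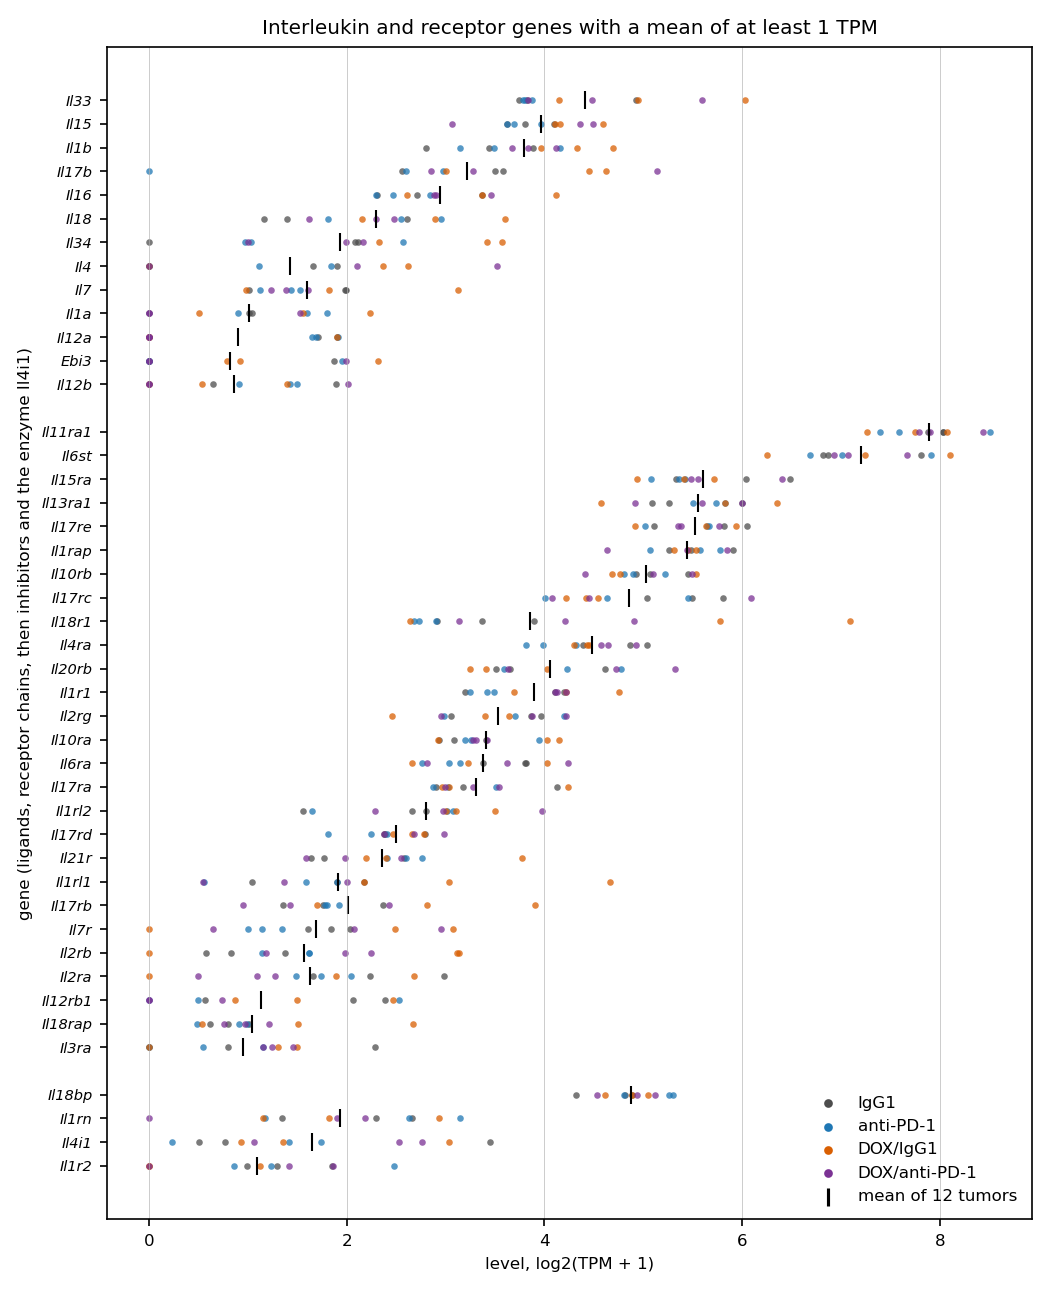
Level of each of the 44 genes with a mean of at least 1 TPM in the 12 tumors, on an axis of log2(TPM + 1), with 1 point per tumor colored by treatment group and a black tick at the mean; ligands are at the top, receptor chains in the middle, inhibitors and the enzyme Il4i1 at the bottom. Il11ra1 and Il6st lie furthest right, and Il18r1 has the widest spread among genes at 1 TPM or more in every tumor.

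Detection varied from tumor to tumor. The number of interleukin and receptor genes above 0 was 46, 54 and 50 in the IgG1 tumors, 49, 53 and 55 in the anti-PD-1 tumors, 40, 52 and 49 in the DOX/IgG1 tumors and 44, 53 and 43 in the DOX/anti-PD-1 tumors. At 1 TPM or more the counts were closer, at 38, 45 and 40 with IgG1, 40 in each anti-PD-1 tumor, 36, 42 and 41 with DOX/IgG1 and 38, 42 and 40 with DOX/anti-PD-1. No group stood apart in either count, and tumors with more genes of all kinds at 0 were among those with fewer interleukin genes above 0. The summed level per tumor ran from 696.6 TPM in DOX/IgG1 1 to 1195 TPM in DOX/IgG1 3, so that 1 group held both ends of the range.

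**Figure D2:**
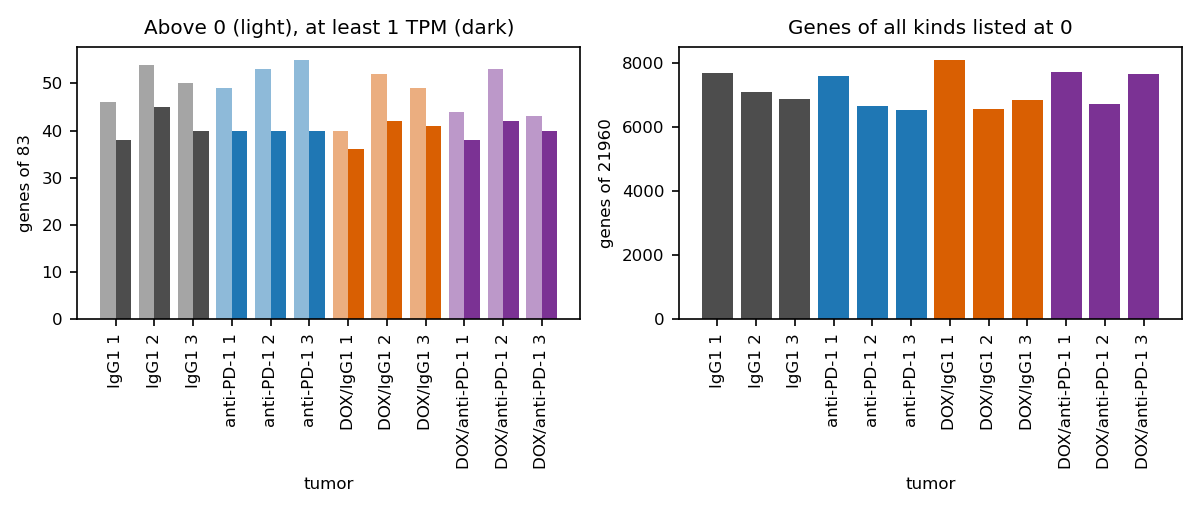
Left, number of the 83 interleukin and receptor genes above 0 (light bars) and at 1 TPM or more (dark bars) in each tumor; right, number of the 21960 listed genes at 0 in each tumor, with bars colored by treatment group. DOX/IgG1 1 has the fewest interleukin genes above 0 (40) and the most genes of all kinds at 0 (8104).

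The ligands were led by Il33, Il15, Il1b and Il17b. Il33 encodes an alarmin of the IL-1 family that is released from damaged epithelial and stromal cells and signals through the receptor ST2. It was at 29.4, 13.1 and 12.4 TPM in the IgG1 tumors, 12.7, 12.97 and 13.7 TPM in the anti-PD-1 tumors, 16.7, 29.9 and 64.2 TPM in the DOX/IgG1 tumors and 47.3, 21.4 and 13.2 TPM in the DOX/anti-PD-1 tumors. The highest levels were in DOX/anti-PD-1 1 and DOX/IgG1 3, the 3 anti-PD-1 tumors lay close together, and every DOX/IgG1 tumor was above every anti-PD-1 tumor, whereas the other groups overlapped. Il1b encodes the main secreted inflammatory cytokine of the IL-1 family, made as a precursor by myeloid cells. Its level was 5.98, 13.8 and 9.84 TPM in the IgG1 tumors, 10.3, 7.87 and 16.8 TPM in the anti-PD-1 tumors, 24.9, 19.1 and 14.7 TPM in the DOX/IgG1 tumors and 11.7, 16.4 and 13.3 TPM in the DOX/anti-PD-1 tumors. Every DOX/IgG1 tumor was above every IgG1 tumor, and the anti-PD-1 and DOX/anti-PD-1 tumors overlapped. Il18, a related precursor cytokine that induces interferon gamma in T and NK cells, reached 1 TPM in all 12 tumors, from 1.24 to 11.1 TPM, and Il1a, the membrane-bound relative of Il1b, reached 1 TPM in 7 of 12, with a highest value of 3.72 TPM. The IL-36 ligand genes were low or listed at 0. Il1f9 was above 0 in 3 tumors at no more than 0.77 TPM and Il1f8 in 1 tumor at 0.47 TPM. Il1f6 was listed at 0 in all.

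Promoter sequences are shown for 5 of 6 genes whose unadjusted p for doxorubicin over both antibodies was below 0.05 (described further on), namely Il33 and Il1b here and Il18r1, Il1r1 and Il12a where their levels are given, while that of Il17b is not shown. The stretches are the 250 bases before 1 of 2 start sites of Il33 and the only start site of Il1b in RefSeq (GRCm38.p6), 5′ to 3′ on the strand of the gene, at chr19:29924863-29925112 on the plus strand for Il33 and chr2:129371140-129371389 on the minus strand for Il1b. Both lie upstream of the annotated exons, and capitals mark the letters TATAAA.
Il33: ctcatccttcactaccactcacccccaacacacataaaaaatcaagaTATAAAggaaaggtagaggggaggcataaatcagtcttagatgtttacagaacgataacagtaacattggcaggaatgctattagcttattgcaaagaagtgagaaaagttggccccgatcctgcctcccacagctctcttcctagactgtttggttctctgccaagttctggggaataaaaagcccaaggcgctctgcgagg
Il1b: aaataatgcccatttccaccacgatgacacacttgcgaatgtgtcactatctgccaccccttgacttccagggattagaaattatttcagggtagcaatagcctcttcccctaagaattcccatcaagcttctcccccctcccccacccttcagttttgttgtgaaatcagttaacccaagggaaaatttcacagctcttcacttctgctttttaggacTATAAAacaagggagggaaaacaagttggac

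Among ligands of the IL-2 and IL-4 group, Il15, which sustains NK cells and memory T cells, was the only one above a mean of 10 TPM. Its values were 12.9, 16.1 and 11.3 TPM with IgG1, 11.3, 11.9 and 14.7 TPM with anti-PD-1, 16.3, 23.2 and 16.8 TPM with DOX/IgG1 and 21.5, 19.5 and 7.34 TPM with DOX/anti-PD-1. The DOX/IgG1 tumors were all above the IgG1 tumors, though by a narrow margin (16.3 TPM for the lowest against 16.1 TPM), and DOX/anti-PD-1 3 was the lowest of the 12. Il7, a survival factor for T cells, ranged from 0.97 to 7.72 TPM and reached 1 TPM in 11 tumors. Il4, the type 2 helper cytokine, was at 1 TPM or more in 8 tumors and at 0 in the other 4, with a highest value of 10.4 TPM in DOX/anti-PD-1 3. Il13, its neighbor in function, was above 0 in that tumor alone at 1.44 TPM. Il2, the T cell growth factor, was above 0 only in anti-PD-1 3 at 0.65 TPM, while Il9 and Il21 were at 0 throughout.

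In the IL-17 family, Il17b was the abundant ligand, whereas the T cell product Il17a was listed at 0 in every tumor and Il17f was above 0 in DOX/IgG1 1 alone at 2.89 TPM. Il17b, which signals through the chain encoded by Il17rb, was at 10.3, 10.99 and 4.88 TPM with IgG1, 0, 6.83 and 5.05 TPM with anti-PD-1, 7.03, 20.8 and 23.6 TPM with DOX/IgG1 and 8.7, 6.23 and 34.2 TPM with DOX/anti-PD-1. Anti-PD-1 1 was at 0, and the highest values were in DOX/anti-PD-1 3, DOX/IgG1 3 and DOX/IgG1 2, with every pair of groups overlapping except DOX/IgG1 against anti-PD-1. Il17c, an epithelial ligand, was above 0 in 2 tumors with a highest value of 2.78 TPM, and Il17d and Il25 were each above 0 in 1 tumor at 0.47 and 0.78 TPM. Outside these families, Il34, an alternative ligand of the macrophage receptor CSF1R, was at 0, 3.23 and 3.34 TPM with IgG1, 0.96, 1.05 and 4.92 TPM with anti-PD-1, 10.9, 4.01 and 9.66 TPM with DOX/IgG1 and 2.98, 3.49 and 1.0 TPM with DOX/anti-PD-1. Every DOX/IgG1 tumor was above every IgG1 and every DOX/anti-PD-1 tumor for Il34, and 1 anti-PD-1 tumor at 4.92 TPM lay within the DOX/IgG1 range. Il16, a T cell chemoattractant, ranged from 3.90 to 16.3 TPM and was above 1 TPM in all 12 tumors.

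Ligands of the IL-6, IL-10, IL-3 and IL-5 families were at or near 0. Il6, which drives acute phase responses, was above 0 in 8 tumors and reached 1 TPM in 3, with a highest value of 3.77 TPM in DOX/IgG1 1. Il11, a gp130 cytokine of stroma, was above 0 in 3 tumors, up to 1.1 TPM in IgG1 3. Il10, the anti-inflammatory cytokine of macrophages and regulatory T cells, was above 0 in a single tumor, DOX/IgG1 3, at 0.79 TPM. Il19 was above 0 in 4 tumors, up to 1.98 TPM, while Il20 and Il24, which lie in the same cluster, were at 0 together with Il22. Il5, the eosinophil growth factor, was above 0 in 6 tumors, including all 3 of the DOX/IgG1 group, with a highest value of 2.20 TPM.

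Receptor chains of the IL-6 family were the most abundant of all interleukin genes. Il11ra1, which binds IL-11, was at 235, 262 and 261 TPM in the IgG1 tumors, 363, 191 and 168 TPM in the anti-PD-1 tumors, 153, 215 and 269 TPM in the DOX/IgG1 tumors and 239, 221 and 346 TPM in the DOX/anti-PD-1 tumors. Values in 1 anti-PD-1 tumor and 1 DOX/anti-PD-1 tumor were the highest and DOX/IgG1 1 was the lowest, and all 4 groups overlapped. This gene has a near-identical copy, Il11ra2, listed at 0 in every tumor, so how reads were divided between them is uncertain. Il6st encodes gp130, the signaling chain shared by IL-6, IL-11 and IL-27. It was measured at 223, 116 and 112 TPM with IgG1, 102, 128 and 239 TPM with anti-PD-1, 75.4, 274 and 151 TPM with DOX/IgG1 and 134, 202 and 121 TPM with DOX/anti-PD-1. The lowest and the highest of the 12 values were both in the DOX/IgG1 group, and no group was separate. Il6ra, the chain that binds IL-6, was at 9.39, 13.1 and 12.9 TPM with IgG1, 5.76, 7.2 and 7.82 TPM with anti-PD-1, 5.33, 15.3 and 8.33 TPM with DOX/IgG1 and 6.04, 11.3 and 17.9 TPM with DOX/anti-PD-1. The anti-PD-1 tumors were all below the IgG1 tumors for Il6ra, while the doxorubicin groups spanned both. Il31ra, a relative of gp130, was above 0 in 2 tumors at no more than 0.34 TPM.

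The common gamma chain and its partners were present in every group. Il15ra, which presents IL-15 to neighboring cells, was at 39.3, 64.9 and 88.8 TPM with IgG1, 41.8, 32.9 and 40.2 TPM with anti-PD-1, 51.7, 41.5 and 29.6 TPM with DOX/IgG1 and 83.4, 43.8 and 46.1 TPM with DOX/anti-PD-1. Each DOX/anti-PD-1 tumor was above each anti-PD-1 tumor, and the IgG1 and DOX/IgG1 tumors overlapped with both. Il2rg, the common gamma chain, stood at 13.6, 14.7 and 7.3 TPM with IgG1, 11.98, 6.91 and 17.3 TPM with anti-PD-1, 4.49, 11.5 and 9.51 TPM with DOX/IgG1 and 17.6, 6.76 and 13.6 TPM with DOX/anti-PD-1. DOX/IgG1 1 was lowest, anti-PD-1 3 and DOX/anti-PD-1 1 were highest, and the groups overlapped. Il4ra, the signaling chain for IL-4 and IL-13, was at 31.9, 19.99 and 28.2 TPM with IgG1, 13.1, 14.8 and 18.95 TPM with anti-PD-1, 20.8, 20.6 and 18.6 TPM with DOX/IgG1 and 22.8, 29.5 and 23.98 TPM with DOX/anti-PD-1. The anti-PD-1 tumors were below all IgG1 and all DOX/anti-PD-1 tumors, and the DOX/anti-PD-1 tumors were also above the DOX/IgG1 tumors. Il13ra1, the partner of Il4ra in the IL-13 receptor, was at 33.1, 37.4 and 62.8 TPM with IgG1, 44.4, 52.3 and 55.95 TPM with anti-PD-1, 22.7, 80.9 and 55.6 TPM with DOX/IgG1 and 29.1, 62.9 and 47.5 TPM with DOX/anti-PD-1. Its lowest and highest values both belonged to the DOX/IgG1 group, so no group was separate.

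Chains that mark lymphocytes were less abundant. Il2rb, shared by the IL-2 and IL-15 receptors of NK and T cells, ranged from 0 in DOX/IgG1 1 to 7.68 and 7.80 TPM in DOX/IgG1 2 and 3, and reached 1 TPM in 9 tumors. Il2ra, carried by activated and regulatory T cells, ranged from 0 to 6.89 TPM and was lower in each DOX/anti-PD-1 tumor than in each anti-PD-1 tumor. Il7r ranged from 0 to 7.45 TPM and was lower in each anti-PD-1 tumor than in each IgG1 tumor, and Il21r ranged from 2.01 to 12.7 TPM. Il9r was above 0 in 2 tumors at no more than 0.20 TPM. In the IL-3 and IL-5 group, Il3ra reached 1 TPM in 7 tumors, up to 3.87 TPM, and Il5ra was above 0 in 1 tumor at 0.35 TPM.

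Receptor chains of the IL-10 family were present although their ligands were close to 0. Il10rb, a chain shared by receptors for IL-10, IL-22 and type III interferon, was at 42.9, 29.5 and 32.5 TPM with IgG1, 26.9, 36.2 and 28.7 TPM with anti-PD-1, 26.2, 24.7 and 45.4 TPM with DOX/IgG1 and 33.3, 43.9 and 20.3 TPM with DOX/anti-PD-1. The highest value was in DOX/IgG1 3 and the lowest in DOX/anti-PD-1 3, and the groups overlapped. Il10ra, the ligand-binding chain found on leukocytes, was at 7.51, 9.63 and 6.64 TPM with IgG1, 14.4, 8.19 and 8.56 TPM with anti-PD-1, 6.59, 15.3 and 16.8 TPM with DOX/IgG1 and 8.7, 9.68 and 8.88 TPM with DOX/anti-PD-1. DOX/IgG1 3, DOX/IgG1 2 and anti-PD-1 1 were highest, while DOX/IgG1 1 was lowest. Il20rb, a chain of the receptors for IL-19, IL-20 and IL-24, was at 10.4, 23.4 and 11.6 TPM with IgG1, 11.1, 17.8 and 26.4 TPM with anti-PD-1, 8.52, 9.59 and 15.3 TPM with DOX/IgG1 and 38.9, 25.4 and 11.4 TPM with DOX/anti-PD-1. The highest value was in DOX/anti-PD-1 1, and no group was separate. Il20ra, its usual partner, was above 0 in 6 tumors, at no more than 1.54 TPM except for 4.93 TPM in DOX/anti-PD-1 2, and it was at 0 in all DOX/IgG1 tumors. Il22ra1, the epithelial IL-22 chain, was above 0 in 8 tumors and stayed at or below 0.87 TPM.

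Receptor chains of the IL-17 family all had means above 1 TPM. Il17re, the chain for IL-17C on epithelium, was at 33.4, 55.5 and 65.2 TPM with IgG1, 31.5, 49.2 and 49.9 TPM with anti-PD-1, 60.4, 29.2 and 48.6 TPM with DOX/IgG1 and 40.7, 53.4 and 39.9 TPM with DOX/anti-PD-1. These values ran from 29.2 to 65.2 TPM, and the groups overlapped. Il17rc, which pairs with Il17ra to bind IL-17A and IL-17F, was at 31.8, 43.95 and 54.8 TPM with IgG1, 15.02, 42.8 and 23.7 TPM with anti-PD-1, 17.7, 20.4 and 22.2 TPM with DOX/IgG1 and 15.9, 20.9 and 66.96 TPM with DOX/anti-PD-1. Every DOX/IgG1 tumor was below every IgG1 tumor, whereas the anti-PD-1 and DOX/anti-PD-1 tumors were spread from 15.02 to 66.96 TPM. Il17ra, the shared chain, ranged from 6.30 to 17.9 TPM, Il17rd from 2.5 to 6.91 TPM and Il17rb from 0.93 to 14.0 TPM, the last highest in DOX/IgG1 2.

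Receptor chains of the IL-1 family included the most variable gene. Il18r1 (ENSMUSG00000026070) encodes the chain that binds IL-18 and is carried by NK cells, T cells and other innate lymphocytes. It was at 13.8, 9.36 and 6.54 TPM in the IgG1 tumors, 5.65, 5.4 and 6.46 TPM in the anti-PD-1 tumors, 5.23, 53.9 and 136 TPM in the DOX/IgG1 tumors and 28.97, 7.78 and 17.5 TPM in the DOX/anti-PD-1 tumors. DOX/IgG1 3 and DOX/IgG1 2 were far above all others, DOX/anti-PD-1 1 came next, and the third tumor of the DOX/IgG1 group, DOX/IgG1 1, was the lowest of the 12. All DOX/anti-PD-1 tumors were above all anti-PD-1 tumors, and all anti-PD-1 tumors were below all IgG1 tumors. Group means ± SD (n = 3) were 9.91 ± 3.68 TPM for IgG1, 5.84 ± 0.554 TPM for anti-PD-1, 64.9 ± 65.8 TPM for DOX/IgG1 and 18.1 ± 10.6 TPM for DOX/anti-PD-1. Over the 12 tumors, the SD of log2(TPM + 1) was 1.42 for Il18r1, against a median of 0.514 for the 25 interleukin genes at 1 TPM or more in every tumor and 0.434 for the 11291 genes of all kinds that met this limit. Il33 came next at 0.788, and Il18bp (0.29) and Il17rd (0.31) varied least.

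Il18r1 starts 136 bases after the end of Il1rl1 on the same strand, so the 250 bases before its start reach past the interval between both genes into exons. This interval at chr1:40465416-40465551, plus strand, is given from RefSeq (GRCm38.p6), with the 114 bases of the 250-base window that lie in exons left out. It precedes 1 of 3 start sites and holds none of the 4 motifs searched, so no capitals appear, although Il18r1 has a match to the STAT letters TTCNNNGAA in the bases left out or before another start site.
Il18r1: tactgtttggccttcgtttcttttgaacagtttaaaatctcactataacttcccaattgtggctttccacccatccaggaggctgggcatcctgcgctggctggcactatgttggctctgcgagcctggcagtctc

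Il1rl1, the gene for ST2, the IL-33 receptor of mast cells, regulatory T cells and type 2 innate lymphocytes, was at 2.74, 1.06 and 3.52 TPM with IgG1, 2.74, 2.0 and 0.47 TPM with anti-PD-1, 7.21, 3.52 and 24.3 TPM with DOX/IgG1 and 1.57, 0.46 and 3.0 TPM with DOX/anti-PD-1. DOX/IgG1 3 was far above the rest and DOX/IgG1 1 came next, and the DOX/IgG1 tumors were above all DOX/anti-PD-1 tumors but touched the IgG1 range. Il18rap, the signaling partner of Il18r1, ranged from 0.40 to 5.35 TPM and reached 1 TPM in 4 tumors, with its highest values in DOX/IgG1 3 and DOX/IgG1 2. Il1rap, the accessory chain for IL-1, IL-33 and IL-36, was at 37.3, 43.8 and 59.1 TPM with IgG1, 32.6, 53.8 and 46.7 TPM with anti-PD-1, 42.7, 38.6 and 45.5 TPM with DOX/IgG1 and 42.5, 56.6 and 23.7 TPM with DOX/anti-PD-1. The lowest value was in DOX/anti-PD-1 3, and the groups overlapped. Il1r1, the signaling receptor for IL-1, was at 17.3, 8.17 and 16.3 TPM with IgG1, 10.2, 8.5 and 9.66 TPM with anti-PD-1, 11.9, 17.6 and 25.95 TPM with DOX/IgG1 and 16.2, 17.7 and 16.5 TPM with DOX/anti-PD-1. All 6 tumors that received doxorubicin were above the 3 anti-PD-1 tumors, and the IgG1 tumors were spread across both. Il1rl2, the IL-36 receptor, ranged from 1.95 to 14.8 TPM, and it was higher in each DOX/IgG1 tumor than in each IgG1 tumor. The brain-expressed relatives Il1rapl1 and Il1rapl2 were above 0 in 2 tumors and 1 tumor, at no more than 1.04 and 0.90 TPM. The 250 bases before 1 of 2 start sites of Il1r1 in RefSeq (GRCm38.p6), at chr1:40224830-40225079 on the plus strand, hold none of the motifs searched.
Il1r1: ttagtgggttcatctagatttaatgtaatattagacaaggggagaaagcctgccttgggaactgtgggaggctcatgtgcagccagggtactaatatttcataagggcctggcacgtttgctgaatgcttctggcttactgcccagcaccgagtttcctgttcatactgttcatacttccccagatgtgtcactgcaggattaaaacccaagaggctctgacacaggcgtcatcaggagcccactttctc

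Among inhibitors, Il18bp, a secreted protein that neutralizes IL-18, was the most abundant. It was at 27.1, 28.7 and 18.96 TPM with IgG1, 26.9, 37.4 and 38.3 TPM with anti-PD-1, 28.5, 23.5 and 32.1 TPM with DOX/IgG1 and 22.1, 29.6 and 33.7 TPM with DOX/anti-PD-1. These values lay within 19.0 to 38.3 TPM, and all groups overlapped. Il1rn, the IL-1 receptor antagonist, ranged from 0 in DOX/anti-PD-1 3 to 7.82 TPM in anti-PD-1 3, and the decoy receptor Il1r2 was above 0 in 9 tumors, up to 4.57 TPM. Il1f5, the antagonist of the IL-36 receptor, was above 0 in 7 tumors and higher in each IgG1 tumor, from 0.97 to 2.47 TPM, than in each anti-PD-1 or DOX/IgG1 tumor. The decoys Il13ra2 and Il22ra2 were above 0 in 3 and 2 tumors, at no more than 1.07 and 0.32 TPM. The enzyme Il4i1 was above 0 in all tumors, from 0.17 to 9.91 TPM.

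The IL-12 family is built from shared subunits. IL-12 combines the products of Il12a and Il12b, IL-23 those of Il23a and Il12b, and IL-27 those of Il27 and Ebi3. The corresponding receptors combine Il12rb1 with Il12rb2, Il12rb1 with Il23r, and Il27ra with gp130. None of these 9 genes, which do not count gp130, reached a mean of 10 TPM.

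Il12a was at 2.26, 2.73 and 0 TPM in the IgG1 tumors, 2.77, 2.13 and 2.23 TPM in the anti-PD-1 tumors, 0, 0 and 2.73 TPM in the DOX/IgG1 tumors and 0, 0 and 0 TPM in the DOX/anti-PD-1 tumors. It was above 2 TPM in all anti-PD-1 tumors and listed at 0 in each DOX/anti-PD-1 tumor, so these groups did not overlap, while 1 IgG1 tumor and 2 DOX/IgG1 tumors were also at 0. Il12b was at 0, 2.72 and 0.56 TPM with IgG1, 0.88, 1.69 and 1.82 TPM with anti-PD-1, 0, 0.45 and 1.63 TPM with DOX/IgG1 and 0, 3.02 and 0 TPM with DOX/anti-PD-1. It was above 0 in all anti-PD-1 tumors, but the highest value was in DOX/anti-PD-1 2. Il23a was at 0, 1.51 and 0 TPM with IgG1, 0, 0 and 3.38 TPM with anti-PD-1, 0, 0 and 0.76 TPM with DOX/IgG1 and 0, 1.2 and 1.27 TPM with DOX/anti-PD-1. Values above 0 occurred in 5 tumors spread over all groups. For Il12a, the 250 bases before 1 of 2 start sites in RefSeq (GRCm38.p6), at chr3:68690394-68690643 on the plus strand, likewise hold none of the motifs.
Il12a: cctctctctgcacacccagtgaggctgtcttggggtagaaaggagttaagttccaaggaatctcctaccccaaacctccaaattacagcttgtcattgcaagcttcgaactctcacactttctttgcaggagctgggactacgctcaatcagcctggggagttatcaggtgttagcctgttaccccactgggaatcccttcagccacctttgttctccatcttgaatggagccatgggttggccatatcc

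Il27 was above 0 in 2 tumors, both of the anti-PD-1 group, with 1.66, 0.64 and 0 TPM in this group and 0 in the 9 tumors of the other groups. Ebi3 was at 0, 2.66 and 0 TPM with IgG1, 2.86, 0 and 0 TPM with anti-PD-1, 3.97, 0.73 and 0.89 TPM with DOX/IgG1 and 0, 0 and 2.97 TPM with DOX/anti-PD-1. It was above 0 in 6 tumors, among them all 3 of the DOX/IgG1 group. Il27 and Ebi3 were both above 0 in anti-PD-1 1 only.

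Of the receptor chains, Il12rb1 was at 0.48, 4.23 and 3.18 TPM with IgG1, 4.78, 0 and 0.41 TPM with anti-PD-1, 0.82, 4.54 and 1.82 TPM with DOX/IgG1 and 0.67, 0 and 0 TPM with DOX/anti-PD-1. It was lower in each DOX/anti-PD-1 tumor than in each DOX/IgG1 tumor, and the IgG1 and anti-PD-1 tumors overlapped with both. Il12rb2 stood at 0.46, 0 and 0.59 TPM with IgG1, 0.93, 0.30 and 0.21 TPM with anti-PD-1, 0, 0.32 and 0 TPM with DOX/IgG1 and 0, 0.59 and 0 TPM with DOX/anti-PD-1. Il23r stood at 0, 0.40 and 0.83 TPM with IgG1, 0.65, 0.50 and 0.22 TPM with anti-PD-1, 0, 2.33 and 0.40 TPM with DOX/IgG1 and 0, 1.28 and 0 TPM with DOX/anti-PD-1. Both were above 0 in tumors of every group, Il12rb2 never at 1 TPM and Il23r at 1 TPM in DOX/IgG1 2 and DOX/anti-PD-1 2. Il27ra was at 0.49, 0.34 and 0.78 TPM with IgG1, 0.61, 0.23 and 0 TPM with anti-PD-1, 0, 0.89 and 0.75 TPM with DOX/IgG1 and 0, 0.30 and 0.63 TPM with DOX/anti-PD-1. It stayed below 1 TPM in all 12 tumors, and the groups overlapped.

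Summed over the 9 genes, the IL-12 family came to 3.69, 14.59 and 5.94 TPM with IgG1, 15.14, 5.49 and 8.27 TPM with anti-PD-1, 4.79, 9.26 and 8.98 TPM with DOX/IgG1 and 0.67, 6.39 and 4.87 TPM with DOX/anti-PD-1. The number of genes above 0 was 4, 7 and 5 of 9 with IgG1, 8, 6 and 6 with anti-PD-1, 2, 6 and 7 with DOX/IgG1 and 1, 5 and 3 with DOX/anti-PD-1. DOX/anti-PD-1 1 had the lowest sum, and the groups overlapped.

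**Figure D3:**
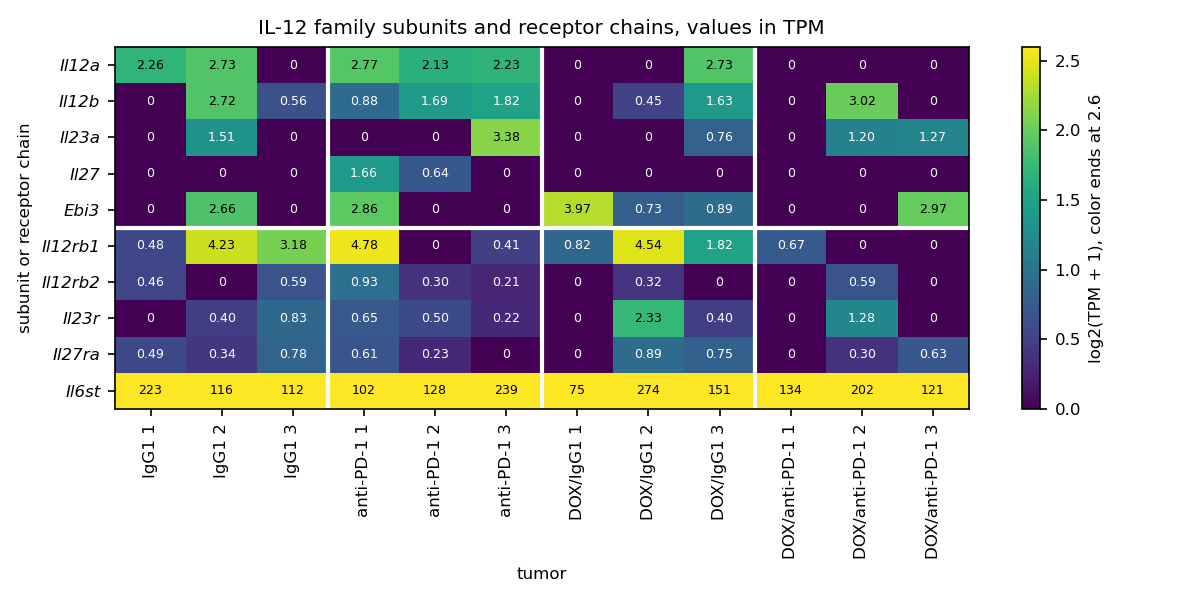
TPM of the IL-12 family subunits (top 5 lines), their receptor chains and gp130 (Il6st) in each of the 12 tumors, with color showing log2(TPM + 1) up to 2.6. Il12a is listed at 0 in each of the 3 DOX/anti-PD-1 tumors, Il27 is above 0 in 2 anti-PD-1 tumors only, and Il6st is at 75.4 TPM or more throughout.

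Whether a ligand and its full receptor were present together was counted for 22 cytokines with known chains, a list made after the values were seen and given only as a description. The receptor chains of 10 cytokines all reached 1 TPM in every tumor, among them those of IL-4, IL-6, IL-10, IL-13, IL-17A and IL-21. For 8 cytokines the ligand reached 1 TPM in no tumor. Among them, IL-10, IL-17A and IL-21 had all receptor chains at this limit in every tumor. Ligand and receptor together reached 1 TPM in all 12 tumors for IL-1 beta alone. IL-33 and IL-7 followed with 10 tumors each, IL-15 with 9, IL-4 with 8 and IL-1 alpha with 7. For IL-18 it was 4 tumors, where Il18rap was the chain that fell short. For IL-12, IL-23 and IL-27 no tumor had every subunit and chain at 1 TPM, and 11 of the 22 cytokines had no such tumor.

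Position in the genome was not used to choose the genes. On GRCm38, 37 of the 83 lie in 13 clusters with gaps of no more than 200 kb. The IL-1 receptor cluster at chr1:40074079-40551705 holds Il1r2, Il1r1, Il1rl2, Il1rl1, Il18r1 and Il18rap, and all 6 had means above 1 TPM. A cluster of IL-1 family ligands and inhibitors at chr2:24153161-24351494 also holds 6 genes, of which 1, Il1rn, had a mean above 1 TPM and 2 were at 0 throughout. In the cluster of Il24, Il20, Il19 and Il10 at chr1:130882074-131024974, 2 of 4 were at 0 and none had a mean of 1 TPM. Il17re and Il17rc lie 668 bases apart on chromosome 6. Reads from neighbors this close were not examined here.

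Promoters were compared with those of all genes as a description of sequence, not as evidence of binding. The RefSeq table held 66 of the 83 genes with 81 start sites, and the first 20 bases of 66 of these sites lay in a GENCODE transcript of the same gene. In the 250 bases before the start, on either strand, the TATA letters TATAAA occurred at 13 of 81 sites (16%), against 12.4% of all 32851 sites. The AP-1 letters TGANTCA occurred at 14 (17.3%, against 6.75%), the STAT letters TTCNNNGAA at 8 (9.88%, against 7.02%) and an NF-kB pattern of 10 letters at 2 (2.47%, against 0.356%), the last in Il16 and Il6. The 4 patterns were counted separately, so matches of one can overlap those of another, and start sites of 1 gene share sequence. Median GC content was 50% in these promoters and 52.4% in all.

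Treatment was compared on log2(TPM + 1) with limma, over genes at 1 TPM or more in 3 or more tumors of the comparison, and a gene was called at an adjusted p below 0.1 with an absolute log2 fold change above 1. A log2 fold change on this scale understates differences of low genes. Comparisons that share a group are not independent. With 3 tumors against 3, the 2-sided exact permutation test of a single gene cannot go below p = 0.1. A gene below 1 TPM throughout 1 group passed the limit only if all 3 tumors of the other group reached it. This fixes its separation, and no conclusion is drawn from the p-value of such a gene. Of the 83 genes, 48 reached 1 TPM in 3 or more of the 12 tumors, and the counts that follow cover only genes that passed this limit, not the whole family.

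With IgG1 as the antibody, the question was what doxorubicin changed on its own. Il34, Il1b and Il1rl1 were higher and Il17rc was lower in DOX/IgG1 than in IgG1 tumors, and none of them passed the test. The log2 fold change was 1.70 ± 0.67 (SE) for Il34 (limma adjusted p = 0.597), 0.95 ± 0.39 for Il1b (adjusted p = 0.614), 1.58 ± 0.66 for Il1rl1 (adjusted p = 0.626) and -1.05 ± 0.29 for Il17rc (adjusted p = 0.469). In the exact permutation test, Il34, Il1b and Il17rc were at the smallest possible value, p = 0.1, and Il1rl1 at p = 0.2. Limma called 0 of 42 tested interleukin and receptor genes, against 5 of 13874 genes of all kinds (0.0360%). At an unadjusted p below 0.05 there were 4 of 42 (9.52%), 3 higher and 1 lower, against 7.73% of all genes. Groups did not overlap for 5 of 42 (11.9%), against 14.0% of all genes, and these shares are close to the background. The untested genes Il5, Il20ra and Il1f5 also had groups without overlap, and all of them have zeros. The median log2 fold change was 0.15 over the 42 genes and 0.12 over all genes, with 26 higher and 16 lower, where 60.6% of all genes were higher.

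Il18r1 was not called in this comparison, with a log2 fold change of 1.78 ± 0.95 (95% interval -0.38 to 3.93, limma adjusted p = 0.704, higher in 2 of 3 DOX/IgG1 tumors than in any IgG1 tumor). The tumor that differed was DOX/IgG1 1, which had the most genes at 0 and also the lowest Il18r1 level of the 12 (5.23 TPM). Without it, Il18r1 rose by 3.04 ± 0.46 (95% interval 2.0 to 4.08, limma adjusted p = 0.0416) and was the only called gene of 42, against 122 of 13874 genes of all kinds (0.879%). Also without it, 10 of 42 (23.8%) had an unadjusted p below 0.05, 9 higher and 1 lower, against 13.0% of all genes, and Il2rb had a log2 fold change of 2.20 ± 0.48 (adjusted p = 0.126). Il17rc and Il1rl1 kept an unadjusted p below 0.05 without this tumor, whereas Il34 and Il1b did not. The log2 fold change of Il34 was then 1.47 (limma unadjusted p = 0.077), against 1.70 with all tumors. That of Il1b was 0.77 (limma unadjusted p = 0.0952), against 0.95. The 2 tumors left in the group then rest on the spread of the other group, and the exact test of all 6 tumors gave p = 0.4 for Il18r1.

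Markers of other cells are given beside these values. The 6 T cell markers Cd3e, Cd3d, Cd3g, Cd2, Cd4 and Cd8a, led by Cd3e, summed to 23.18, 15.97 and 7.7 TPM with IgG1, 5.59, 17.05 and 8.81 TPM with anti-PD-1, 5.76, 49.19 and 43.33 TPM with DOX/IgG1 and 16.05, 17.2 and 32.75 TPM with DOX/anti-PD-1. The 6 NK cell markers Ncr1, Klrb1c, Klrd1, Eomes, Prf1 and Gzma, led by Klrd1, summed to 11.2, 7.06 and 6.98 TPM with IgG1, 6.36, 11.85 and 21.69 TPM with anti-PD-1, 7.5, 46.27 and 38.92 TPM with DOX/IgG1 and 6.06, 24.75 and 14.49 TPM with DOX/anti-PD-1. DOX/IgG1 2 and DOX/IgG1 3 had the highest sums of both lists, as for Il18r1 and Il2rb, and DOX/IgG1 1 was low in both. The DOX/anti-PD-1 group did not show this order. There Il18r1 was at 28.97, 7.78 and 17.5 TPM, and the tumor highest in Il18r1 had the lowest NK cell sum (6.06 TPM). No gene of these lists was at 0 in every tumor, and their part in the result was not tested. With an unadjusted p below 0.05, 1 of 5 tested T cell markers (Cd3g) and 1 of 3 NK cell markers (Gzma) were higher in DOX/IgG1 than in IgG1 tumors. Mast cells carry ST2, and 4 of 4 tested mast cell markers were higher there (median 0.93), with Mcpt4 at an unadjusted p below 0.05. Their part in the result for Il1rl1 was not tested. The 4 salivary gland markers Bpifa2, Smr3a, Amy1 and Prol1, led by Amy1, summed to 52.13, 97.98 and 112.6 TPM in the DOX/IgG1 tumors, against 5.4 to 23.29 TPM in the other 9. Of these 4, Smr3a and Bpifa2 were called higher in DOX/IgG1 than in IgG1 tumors (limma adjusted p = 0.0334 for each). Both were at 0 in every IgG1 tumor and passed the limit only through the DOX/IgG1 group, which fixes their separation. Bpifa2, Smr3a and Amy1 were above every IgG1 tumor in all 3 DOX/IgG1 tumors, as were Il34 and Il1b, with Amy1 also at an unadjusted p below 0.05, while Prol1 was at 0 in DOX/IgG1 1, and the part of these cells in the interleukin results was not tested.

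**Figure D4:**
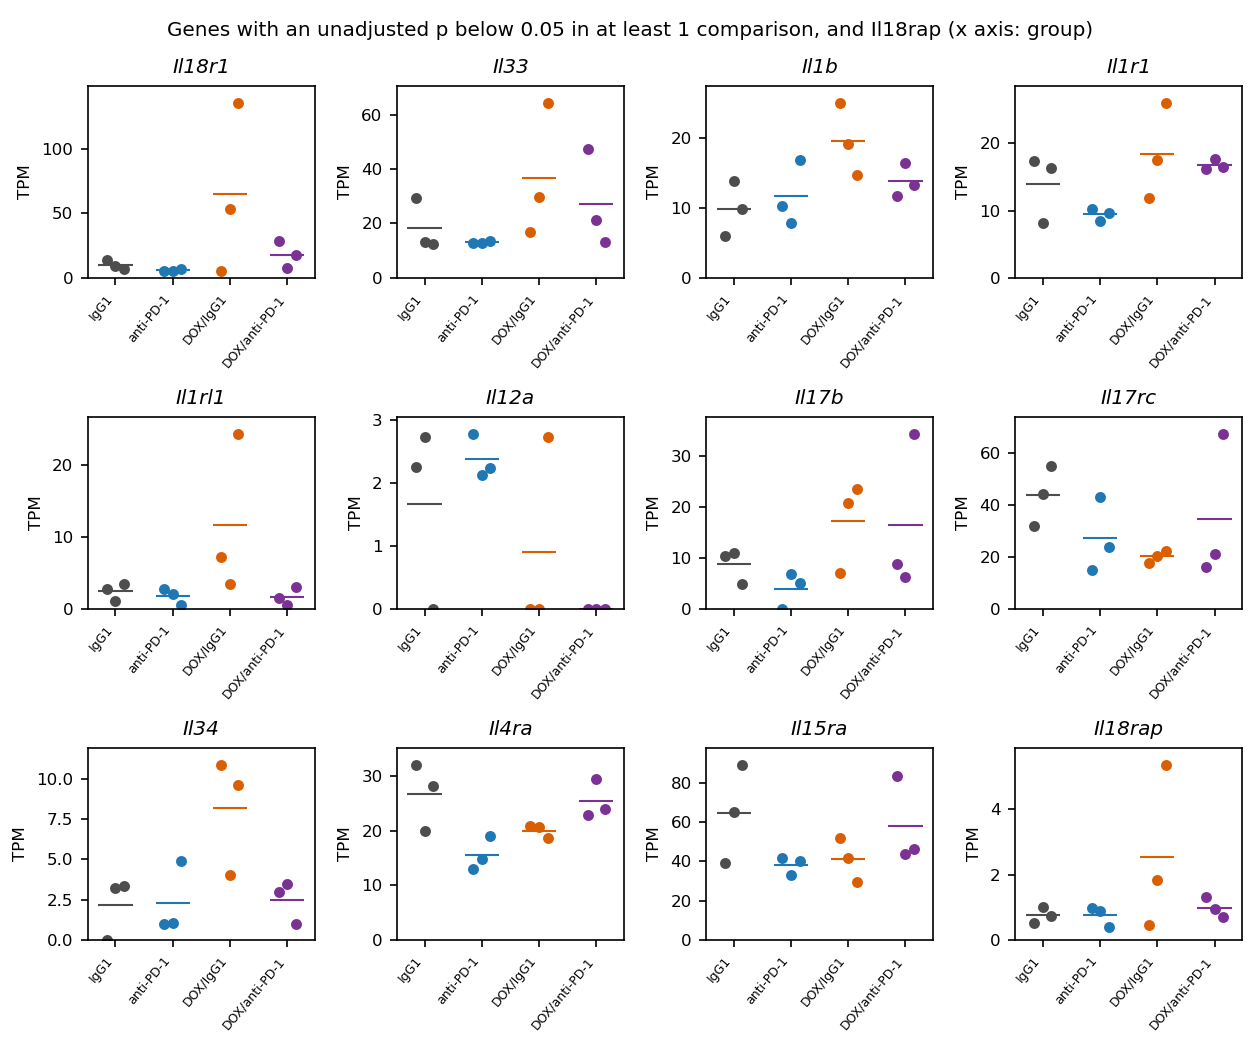
TPM of 11 genes with an unadjusted p below 0.05 in at least 1 comparison, and of Il18rap, in the 4 treatment groups on the x axis, with 1 point per tumor and a line at the group mean; each axis starts at 0 and has its own range. Il18r1 is at 53.9 and 136 TPM in 2 DOX/IgG1 tumors and at 5.23 TPM in the other, and Il12a is at 0 in each DOX/anti-PD-1 tumor.

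With anti-PD-1 as the antibody, the question was what doxorubicin added to checkpoint blockade. Il18r1, Il1r1 and Il4ra were higher in every DOX/anti-PD-1 tumor than in any anti-PD-1 tumor, Il17b was higher on average, and Il12a was listed at 0 with the combination. The log2 fold change was 1.31 ± 0.45 for Il18r1 (limma adjusted p = 0.504), 0.77 ± 0.28 for Il1r1 (adjusted p = 0.52), 0.68 ± 0.27 for Il4ra (adjusted p = 0.54) and 1.90 ± 0.84 for Il17b (adjusted p = 0.576). For Il12a the limma adjusted p was 0.479, and no fold is given against a group at 0. It passed the limit of 1 TPM only through the anti-PD-1 group, so no conclusion is drawn from its p-values. The counts that follow include it. In the exact permutation test Il18r1, Il1r1 and Il4ra were at p = 0.1, the smallest possible, and Il17b at p = 0.2. Il12a was also at the smallest possible value of this test, but the limit of 1 TPM had already fixed its separation. Limma called 0 of 42 tested genes, against 0 of 13736 (0%) of all kinds. At an unadjusted p below 0.05 there were 5 of 42 (11.9%), 4 higher and 1 lower, against 8.63% of all genes. Groups did not overlap for 7 of 42 (16.7%), against 14.9% of all genes, namely Il15ra, Il18r1, Il4ra, Il1r1 and Il16 above and Il2ra and Il12a below. The median log2 fold change was 0.16 over these genes and 0.11 over all genes, with 28 higher and 14 lower, where 60.0% of all genes were higher. In this comparison 3 of 6 fibroblast markers (Col1a1, Dcn and Lum) and 3 of 4 adipocyte markers (Adipoq, Plin1 and Fabp4) were higher with an unadjusted p below 0.05, whereas 0 of 4 T cell and 0 of 4 NK cell markers were, and their part in the result was not tested.

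Anti-PD-1 was compared with IgG1 without doxorubicin to ask what the antibody changed alone. Il4ra was lower in each anti-PD-1 tumor than in each IgG1 tumor, with a log2 fold change of -0.73 ± 0.29 (limma adjusted p = 0.996, exact permutation p = 0.1). Limma called 0 of 41 tested genes, against 0 of 13692 (0%) of all kinds, and Il4ra was the 1 of 41 (2.44%) with an unadjusted p below 0.05, against 4.60% of all genes. Groups did not overlap for 4 of 41 (9.76%), against 9.88% of all genes, and all of them, Il18r1, Il4ra, Il6ra and Il7r, were lower with anti-PD-1. The untested Il22ra1 and Il1f5 also had groups without overlap, above and below. The median log2 fold change was -0.15 over these genes and -0.03 over all genes, with 17 higher and 24 lower, where 47.2% of all genes were higher. Of the tested cell markers, 7 of 7 for epithelium, 6 of 6 for fibroblasts and 4 of 4 for adipocytes were also lower. So were 4 of 4 for skeletal muscle, 5 of 6 for macrophages and 4 of 5 for T cells. For NK cells 2 of 2 were higher, and the part of these cells in the result was not tested.

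On the doxorubicin background, DOX/anti-PD-1 was compared with DOX/IgG1 to ask what the antibody added to chemotherapy. Il1rl1 and Il34 were lower in every DOX/anti-PD-1 tumor than in any DOX/IgG1 tumor. The log2 fold change was -1.99 ± 0.70 for Il1rl1 and -1.38 ± 0.54 for Il34 (limma adjusted p = 0.988 for each, exact permutation p = 0.1 for each). Limma called 0 of 41 tested genes, against 0 of 13946 (0%) of all kinds. With an unadjusted p below 0.05 there were 2 of 41 (4.88%), both lower, against 4.70% of all genes, and without DOX/IgG1 1 there were 4 of 41 (9.76%), all lower, against 7.54%. Il18r1 had the lowest p of these 4, at a log2 fold change of -2.35 (limma adjusted p = 0.381), against -1.09 with all tumors. Il1rl1 was also among the 4, but Il34 no longer was (log2 fold change -1.15, limma unadjusted p = 0.089). Groups did not overlap for 3 of 41 (7.32%), against 10.2% of all genes, and the untested Il12rb1 was also lower in each DOX/anti-PD-1 tumor (exact permutation p = 0.1). The median log2 fold change was -0.13 over these genes and -0.04 over all genes, with 17 higher and 24 lower, where 46.3% of all genes were higher. The mast cell markers Cpa3, Mcpt4, Tpsb2, Cma1, Fcer1a and Ms4a2, which come from cells that carry ST2, summed to 2.37, 41.3 and 9.52 TPM with DOX/IgG1 and 3.59, 8.94 and 20.59 TPM with DOX/anti-PD-1, led by Mcpt4. All 4 tested mast cell markers were lower on average with the combination, with a median of -0.61, none at an unadjusted p below 0.05, and their sum was highest in DOX/IgG1 2, where Il1rl1 was at 3.52 TPM. Salivary gland markers were also lower, 4 of 4, with Bpifa2 and Smr3a at 0 with the combination (limma adjusted p = 0.103 for each) and Amy1 at an unadjusted p below 0.05. Bpifa2 and Smr3a passed the limit of 1 TPM here only through the DOX/IgG1 group, which fixes their separation. T cell markers were lower in 4 of 5 (median -0.51) and NK cell markers in 3 of 4 (median -0.71), none at an unadjusted p below 0.05. All 4 adipocyte markers were higher on average. The part of these cell types in the results for Il1rl1 and Il34 was not tested.

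Over both antibodies, the 6 tumors that received doxorubicin were compared with the 6 that did not, with the antibody in the limma model. The exact permutation test rearranged all 12 tumors and took no account of the antibody. Il18r1, Il17b, Il33, Il1b and Il1r1 were higher and Il12a was lower with doxorubicin, and none passed the test. For Il18r1 the lowest, median and highest levels were 5.23, 23.2 and 136 TPM with doxorubicin and 5.4, 6.5 and 13.8 TPM without, a log2 fold change of 1.54 ± 0.56 (limma adjusted p = 0.312, exact permutation p = 0.0498). For Il33 these levels were 13.2, 25.6 and 64.2 TPM with doxorubicin and 12.4, 13.0 and 29.4 TPM without (log2 fold change 0.85 ± 0.35, adjusted p = 0.352, exact permutation p = 0.0649). For Il17b they were 6.23, 14.8 and 34.2 TPM against 0, 5.94 and 10.99 TPM (1.36 ± 0.54 on the log2 scale, adjusted p = 0.343, exact permutation p = 0.0584). In all 3 genes the ranges overlapped. Markers of several cell types were also mostly higher, 4 of 4 for NK cells (median 0.51), 4 of 5 for T cells (0.72), 6 of 6 for macrophages and 4 of 4 for adipocytes. Others were not, with 3 higher and 4 lower for epithelium, 1 and 2 for neutrophils and 2 and 2 for skeletal muscle. Of all genes, 63.3% were higher. The part of these cells in the result was not tested.

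Differences in Il1r1 and Il1b were smaller. Il1r1 went from a median of 9.94 TPM without doxorubicin to 17.0 TPM with it (0.58 ± 0.24 on the log2 scale, limma adjusted p = 0.367, exact permutation p = 0.0238), and Il1b from 10.1 to 15.5 TPM (0.61 ± 0.27, adjusted p = 0.38, exact permutation p = 0.039). Il12a was above 0 in 5 of 6 tumors without doxorubicin and in 1 of 6 with it (log2 fold change -1.16 ± 0.44, adjusted p = 0.329, exact permutation p = 0.0671). For the other 8 genes of the IL-12 family, the exact permutation test of doxorubicin gave p from 0.167 (Il12rb2) to 1 (Il27ra), and their ranges overlapped. These exact values are not adjusted for the 48 genes tested. Limma called 0 of 48, against 3 of 14735 genes of all kinds (0.0204%). At an unadjusted p below 0.05 there were 6 of 48 (12.5%), 5 higher and 1 lower, against 12.0% of all genes, so the share is that of the background. Groups of 6 did not overlap for 0 of 48, against 0.719% of all genes. The median log2 fold change was 0.16 over the 48 genes and 0.12 over all genes, with 29 higher and 19 lower, where 63.3% of all genes were higher. Without DOX/IgG1 1, Il18r1 rose by 2.08 ± 0.40 (limma adjusted p = 0.0437, against 0.0437 to 0.467 over all alternatives) and was the only call of 48, against 212 of 14735 genes of all kinds (1.44%). Il1b, at a log2 fold change of 0.50, then no longer had an unadjusted p below 0.05 (0.0881). An unadjusted p below 0.05 was kept by Il17b, Il33, Il1r1 and Il12a. In this fit 8 of 48 genes (16.7%) had one, against 14.7% of all genes.

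**Figure D5:**
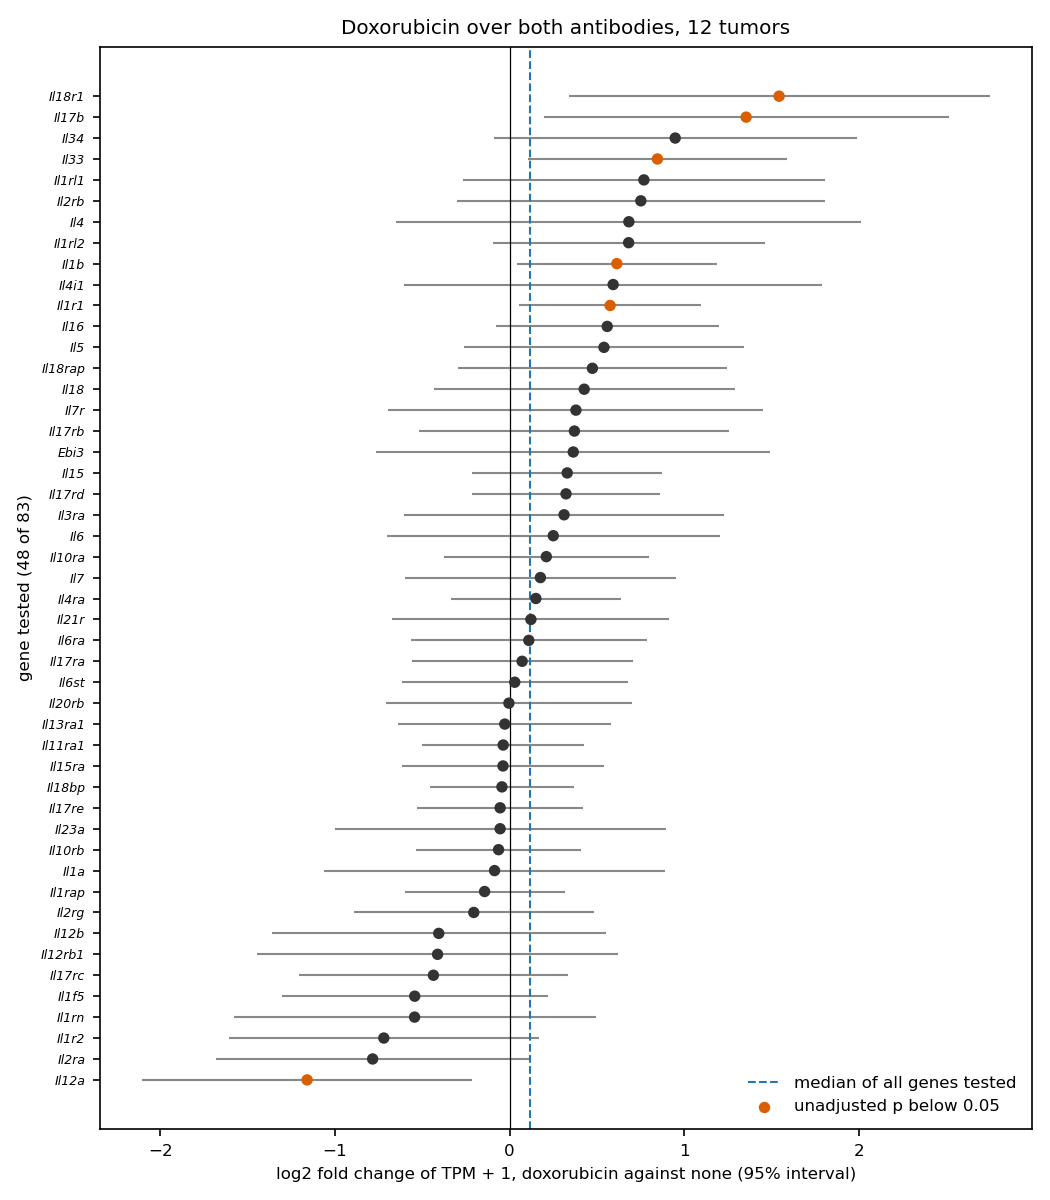
Log2 fold change of TPM + 1 for doxorubicin over both antibodies in the 48 tested interleukin and receptor genes, with 95% intervals; orange points have an unadjusted p below 0.05 and the dashed line is the median of all genes tested (0.12). Of the 48 genes, 29 lie above 0 and 19 below, and Il18r1 (1.54) and Il12a (-1.16) are at the ends.

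Anti-PD-1 over both chemotherapy arms gave 0 calls of 48 in limma, against 0 of 14735 (0%) of all kinds. Il1rl1 was the 1 of 48 (2.08%) with an unadjusted p below 0.05, against 4.69% of all genes, with a log2 fold change of -1.17 ± 0.49 (adjusted p = 0.999, exact permutation p = 0.0606). Its median was 1.79 TPM in the 6 tumors with anti-PD-1 and 3.52 TPM in the 6 with IgG1, and the ranges overlapped. Of the 48, 36 were lower and 12 higher, with a median of -0.13, whereas 45.6% of all genes were higher, with a median of -0.03. Markers of several cell types were also mostly lower, 6 of 6 for fibroblasts, 6 of 7 for epithelium, 5 of 6 for macrophages, 4 of 5 for T cells (median -0.63) and 3 of 4 for NK cells, while 3 of 3 neutrophil markers were higher, and their part in the result was not tested. Groups of 6 did not overlap for 0 of 48, against 0.204% of all genes. Without DOX/IgG1 1 the share with an unadjusted p below 0.05 was 4 of 48 (8.33%), all lower, against 6.22% of all genes, and limma again called 0.

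The interaction asked whether the difference with anti-PD-1 was another on doxorubicin than without. The genes with an unadjusted p below 0.05 were Il4ra (1.05 ± 0.38 on the log2 scale) and Il15ra (1.13 ± 0.47), with a limma adjusted p of 0.993 for each. Both were lower with anti-PD-1 than with IgG1 when given alone, at a mean of 15.6 against 26.7 TPM for Il4ra, and higher on doxorubicin, at 25.4 against 20.0 TPM. Limma called 0 of 48, against 1 of 14735 genes of all kinds (0.00679%), and 2 of 48 (4.17%) had an unadjusted p below 0.05, against 4.71% of all genes. For Il18r1 the interaction was -0.47 ± 1.17 (adjusted p = 0.993), and without DOX/IgG1 1 it was -1.73 ± 0.69 (adjusted p = 0.703), with 8 of 48 (16.7%) at an unadjusted p below 0.05, against 6.45% of all genes. Over the 48 genes 21 were higher and 27 lower, with a median of -0.04 beside -0.01 for all genes, of which 49.4% were higher.

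Genes that act with interleukin receptors were described in 4 lists, none of which held a called gene in any of the 7 comparisons. Their counts at an unadjusted p below 0.05 stand beside shares of all genes of 7.73%, 8.63%, 4.60%, 4.70%, 12.0%, 4.69% and 4.71% in the order of the comparisons above. Of 17 receptor partners and related cytokines outside the symbol rule, Osmr, the oncostatin M chain that pairs with gp130, was the most abundant, and Csf2 was at 0 in every tumor. With an unadjusted p below 0.05, Cntfr was higher with doxorubicin under either antibody and over both, and Lif, another gp130 ligand, was lower in anti-PD-1 than in IgG1 tumors and higher with the combination than with anti-PD-1. This list gave 1 of 15 tested genes in DOX/IgG1 against IgG1, 2 of 14 in DOX/anti-PD-1 against anti-PD-1, 0 of 14 for the combination against DOX/IgG1, 2 of 15 for doxorubicin over both antibodies (Lifr the other), 0 of 15 for anti-PD-1 over both arms and 2 of 15 for the interaction (Lif and Csf2ra). Of 15 genes for processing and signaling of the IL-1 family, led by Tab2, the counts in the order in which the 7 comparisons are described above were 1 (Casp1, the protease that matures IL-1 beta and IL-18, higher), 4 (Tab1, Myd88 and Irak2 higher, Casp1 lower), 1 (Irak2, lower), 1 (Casp1, lower), 4 (Tab1, Map3k7, Myd88 and Irak2, higher), 2 (Nlrp3 higher, Irak2 lower) and 1 (Casp1). Of 15 JAK, STAT and inhibitor genes, led by Stat3, there were 3 in DOX/anti-PD-1 against anti-PD-1 (Cish and Socs3 higher, Stat4 lower) and 0 in anti-PD-1 against IgG1. For doxorubicin over both antibodies there were 3 (Socs2, Jak2 and Cish, higher) and for anti-PD-1 over both arms 0. Jak2 was also higher in DOX/IgG1 than in IgG1 tumors, and Stat4 had an unadjusted p below 0.05 in the interaction. In DOX/anti-PD-1 against anti-PD-1, Stat4 was at 0 with the combination and passed the limit of 1 TPM only through the anti-PD-1 group. Cntfr was below 1 TPM in each anti-PD-1 tumor and passed only through the combination. Of 8 genes of IL-17 receptor signaling, led by Lcn2, a secreted iron-carrier protein induced by IL-17, the counts in the order of the 7 comparisons were 1 (Lcn2, lower), 0, 0, 0, 3 (Lcn2, Cebpb and Cebpd, lower), 1 (Cebpd, lower) and 0. Casp1 had a log2 fold change of 0.66 ± 0.25 with doxorubicin under IgG1 and -0.73 ± 0.29 under anti-PD-1, and its interaction was -1.39 ± 0.38 (limma adjusted p = 0.993).

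The remaining cell markers give the makeup of the tumors beside which the interleukin values stand, and none was called in any comparison apart from the salivary genes. Macrophage markers, led by C1qa, summed to 214.4 to 377.2 TPM per tumor, with Cd68 lower in anti-PD-1 than in IgG1 tumors and over both arms at an unadjusted p below 0.05. Fibroblast markers, led by Col1a1, ran from 443 to 1600 TPM, with Col1a1 lower in DOX/IgG1 and in anti-PD-1 than in IgG1 tumors, Dcn higher with doxorubicin over both antibodies, and Col1a1 and Col3a1 in the interaction. Endothelial markers, led by Pecam1, ran from 47.84 to 116.4 TPM, with Cdh5 lower in DOX/IgG1 tumors, Cldn5 lower in anti-PD-1 tumors and higher with the combination than with anti-PD-1, and Kdr lower with anti-PD-1 over both arms. Among epithelial markers, Epcam was lower in DOX/IgG1 tumors and with doxorubicin over both antibodies, while Krt19 was lower in anti-PD-1 tumors and higher both with the combination than with anti-PD-1 and with doxorubicin over both antibodies. Mast cell markers ran from 2.25 to 41.3 TPM, and Mcpt4 was higher in DOX/IgG1 than in IgG1 tumors. Adipocyte markers, led by Adipoq, ran from 36.11 to 472.4 TPM, with Fabp4 higher with doxorubicin over both antibodies, and skeletal muscle markers, led by Acta1, ran from 0 to 591.8 TPM with none at an unadjusted p below 0.05. Neutrophil markers, led by S100a8, summed to no more than 14.18 TPM, with Ly6g at 0 in every tumor, and B cell markers, led by Cd79b, to no more than 3.59 TPM with none tested. Cd3g was higher with doxorubicin over both antibodies and in anti-PD-1 than in IgG1 tumors, Gzma had an unadjusted p below 0.05 in the interaction, and Amy1, Smr3a and Bpifa2 were higher with doxorubicin over both antibodies and lower with the combination than with DOX/IgG1. Smr3a and Bpifa2 were also lower with anti-PD-1 over both arms and had an unadjusted p below 0.05 in the interaction. There Bpifa2, listed at 0 outside the DOX/IgG1 group, was called (limma adjusted p = 0.0909). It was tested only through that group, so no conclusion is drawn from this call. The part of these cells in the interleukin values was not tested.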

How the data were processed

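RNA was sequenced from 12 PyMT tumors, 3 per group, with libraries from a stranded total RNA kit read from 1 end, and groups were taken from the sample labels. The authors trimmed reads with skewer, aligned them with STAR to mm10 and used RSEM for quantification in SeqBox, with versions not given in the sources used here. They deposited log2(TPM + 1) for 21960 genes per tumor, written with decimal commas, which were read as decimal points. When the log2 step was reversed, every TPM value lay within 0.00247 of a whole number after multiplying by 100, so values were taken to 2 decimals. TPM keeps no read counts, so library depth is unknown and no interval for counting error is given. Listed genes summed to 609418 to 725506 TPM per tumor, and tumors correlated at 0.927 to 0.976 across genes, which are not independent replicates. The interleukin genes and the lists were chosen with earlier results of these data known. The paper tested counts, which the files do not hold, and the design named limma for normalized values, so limma 3.58.1 (R 4.3.3) was run (lmFit, then eBayes with trend) on log2(TPM + 1), 2-sided, with Benjamini-Hochberg adjustment over all tested genes. A pseudocount of 1, a minimum of 1 TPM in 3 tumors, calls at a limit of 0.1 for adjusted p and 1 for the absolute log2 fold change were used. Single genes were compared with exact permutation tests over 20 arrangements of 6 tumors or 924 of 12 (Python 3.11.15, numpy 2.4.6, pandas 2.3.3, scipy 1.17.1), and figures were drawn with matplotlib 3.10.9. The 924 arrangements took no account of the other treatment. Values in every tumor are given for genes with a mean of at least 10 TPM, genes with an unadjusted p below 0.05 in any comparison and all IL-12 family genes, and other genes by range. Genes named because their groups do not overlap were named after their values were seen. The further lists are receptor partners, IL-1 family processing, JAK-STAT, IL-17 receptor signaling and markers of epithelial, fibroblast, endothelial, macrophage, neutrophil, mast, T, B, NK, adipocyte, skeletal muscle and salivary gland cells. Alternatives were a pseudocount of 0.1, no minimum, median-of-ratios scaling, the replicate number as a block, no mean-variance trend, all 12 tumors in 1 fit, limits of 0.5 and 2 TPM and leaving out each tumor in turn. DOX/IgG1 1 was singled out from these after seeing the data. Gene positions are from GENCODE vM21 (GRCm38) and promoter sequences from RefSeq (GRCm38.p6). Some counts of the receptor partner and JAK-STAT lists are not reported here. Proteins were not used here.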

Additional observations from a re-analysis of the deposited data

How the results depend on the processing

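The number of called interleukin genes was 0 in all 7 comparisons and under all alternatives except leaving out a tumor, where it ranged from 0 to 1 in DOX/IgG1 against IgG1 and from 0 to 1 for doxorubicin over both antibodies. The 1 call in each was Il18r1 without DOX/IgG1 1, and the cause was not tested. Of 297 values of the 21 single-gene results under alternatives, 296 stayed on their side of the limits, 1 passed them (that of Il18r1 for doxorubicin over both antibodies, 2.08) and 0 changed direction. The 21 results were those with an unadjusted p below 0.05 in the same tumors, and none was called. This choice favors an unchanged direction, so no conclusion is drawn from these counts. Sizes moved on leaving out a tumor, from 0.90 to 2.14 for Il1rl1 and 1.00 to 2.09 for Il34 in DOX/IgG1 against IgG1, 0.97 to 2.46 for Il17b in DOX/anti-PD-1 against anti-PD-1, 0.88 to 1.64 for Il17b for doxorubicin over both antibodies, -2.55 to -1.30 for Il1rl1 with the combination against DOX/IgG1 and -1.41 to -0.78 for Il1rl1 with anti-PD-1 over both arms. A pseudocount of 0.1 widened differences of genes with zeros, to 2.86 for Il34 in DOX/IgG1 against IgG1, 3.02 for Il17b in DOX/anti-PD-1 against anti-PD-1 and -3.07 for Il12a for doxorubicin over both antibodies. At limits of 0.5 and 2 TPM, 50 and 36 of 83 genes reached the mean level in place of 44. Interleukin genes at an unadjusted p below 0.05 ranged over all alternatives from 2 to 10 in DOX/IgG1 against IgG1 (4 as reported), 3 to 7 in DOX/anti-PD-1 against anti-PD-1 (5, and 3 after scaling, without Il4ra and Il17b), 0 to 4 in anti-PD-1 against IgG1 (1), 0 to 4 for the combination against DOX/IgG1 (2), 3 to 8 for doxorubicin (6), 0 to 4 for anti-PD-1 over both arms (1) and 1 to 8 for the interaction (2). Calls among all genes moved more. In DOX/IgG1 against IgG1 there were 5, with 2 under the replicate block, 13 without a trend and 0 to 122 on leaving out a tumor (122 without DOX/IgG1 1). For doxorubicin over both antibodies there were 3, with 14 after median-of-ratios scaling (3 higher and 11 lower, against 3 and 0), 2 with no minimum, 1 under the replicate block, 0 without a trend and 0 to 212 on leaving out a tumor (212 without DOX/IgG1 1, 27 without DOX/anti-PD-1 2). The interaction had 1, with 0 at the pseudocount of 0.1, after scaling and under the replicate block, 3 with no minimum or without a trend, and 0 to 1 on leaving out a tumor. The other pairwise comparisons had 0, with 0 to 4 on leaving out a tumor and, without a trend, 3 for DOX/anti-PD-1 against anti-PD-1, 1 for anti-PD-1 against IgG1 and 3 for DOX/anti-PD-1 against DOX/IgG1, the last also with 3 after scaling (1 higher, 2 lower) and 2 with all 12 tumors in 1 fit. Anti-PD-1 over both arms had 0 throughout. Scaling moved the median of all genes by -0.11 in DOX/anti-PD-1 against anti-PD-1. After it, interleukin genes were 23 higher and 19 lower there and in DOX/IgG1 against IgG1, and 27 and 21 for doxorubicin over both antibodies, where those with an unadjusted p below 0.05 went from 6 to 3 (Il18r1, Il17b and Il12a). Tumors with the same replicate number correlated at -0.0963 to 0.134 in their deviations from group means, and those with different numbers at -0.19 to 0.113. These ranges overlap, so they do not decide whether the numbers pair the tumors. The replicate block changed no call of an interleukin gene. Unknown depth limits every value near 0.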
